A study of Homo sapiens with 6 samples.

Results

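The 41 genes described here encode proteins that bind the poly(A) tail, bind the cap, or shorten, decap and degrade mRNA, with partners and relatives of such proteins. They were chosen by name, as PABPC1 and its partners, the deadenylases, the decapping factors and the cap-binding factors, and not by their values. They are 41 of the 30717 genes in the table, with 490 of its 121915 transcripts that carry a gene, and all 41 passed the filter on low counts. The samples were T24 and UMUC3, established human bladder cancer cell lines, with and without knockdown of circPTK2, a circular RNA made from PTK2 exons. Each line gave 1 control library (titled CON), 1 library with siRNA 1 and 1 library with siRNA 2, so that 6 libraries were compared. The titles name siRNAs, whereas the design text of the series names sh constructs, and both lines carried no other alteration that the labels give. The level of circPTK2 was not analysed here, so the knockdown was not checked. PABPC1 is named in the title of the series beside circPTK2.

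The poly(A) tail of an mRNA is coated by poly(A)-binding proteins, which contact the scaffold eIF4G at the cap-binding complex eIF4F and so favour translation and stability. Decay usually starts with shortening of the tail, by the PAN2-PAN3 complex and by the CCR4-NOT complex. The LSM1-7 ring and DDX6 then favour removal of the cap by DCP2, after which XRN1 degrades the body from its 5' end. By a separate route the exosome degrades the body from its 3' end once the tail is shortened. Nonsense-mediated decay, in which UPF1 is the central helicase, removes mRNAs with premature stop codons. Cytoplasmic PABPC1 is an abundant protein that takes part in translation, deadenylation and surveillance.

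The libraries held between 65111683 and 72362436 counts, of which 55071837 to 60780176 fell in transcripts with a gene. Levels are given in CPM, that is read counts relative to the library's counts in transcripts with a gene, after scaling between libraries. A single gene of this group had between 145 and 110492 counts in a library. The control of each line was a single library, and the labels name no separate cultures for the knockdown libraries, so a p-value here reflects only how far these samples differed, which may be technical variation. In such bulk samples fewer cells of a kind and less RNA per cell cannot be told apart. Urothelial markers summed to 2752 to 2920 CPM in T24 and to 178.6 to 199.5 CPM in UMUC3, over the 14 markers in the table. In T24 the sum came largely from KRT8, KRT18 and KRT7. KRT18 had 835 CPM in the T24 control, 424 CPM with siRNA 1 and 389 CPM with siRNA 2, and KRT7 had 171, 479.5 and 708 CPM in the same order. Their part in the T24 results was not tested. The markers CDH1, UPK1A, UPK1B and KRT20 were at or near 0 in both lines. Of the 4 immune markers PTPRC and LYZ were at or near 0 in every library, and the sum was 7.53 to 9.34 CPM in T24 and 29.1 to 54.56 CPM in UMUC3. The 5 stromal and endothelial markers summed to 67.61 to 78.96 CPM in T24, mostly CDH5, and to 3.73 to 8.68 CPM in UMUC3. Mitochondrially encoded RNA had 26430 CPM in the T24 control, 34310 CPM with siRNA 1 and 35730 CPM with siRNA 2, against 45520, 42510 and 45550 CPM in the same order in UMUC3. Its part in the T24 results below was not tested.

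Knockdown of circPTK2 went with few differences in these genes that passed the test. With the T24 libraries, EIF4H fell and LSM12 rose, and the other 39 genes did not pass. In T24, 2 of 41 were called (edgeR quasi-likelihood test, adjusted p under 0.05 over all 20721 tested genes), where 0.135% of all tested genes were called. In T24 DESeq2 called 3 members, LSM1 besides these, whereas limma voom and the older edgeR quasi-likelihood form (chosen after seeing the data) called 0. In UMUC3, 0 of 41 were called, where 0.647% of all tested genes were, although 1 gene was higher and 7 were lower at an unadjusted p below 0.05. DESeq2 called 2 members in UMUC3 and limma voom called 0. Over both lines together, with the line as a term, 0 of 41 were called against 0.0145% of all tested genes, with 1 higher and 2 lower at an unadjusted p below 0.05. For that comparison DESeq2 called 2 members, EIF4H and UPF1, and limma voom called 0. The difference between the knockdown effects of the lines was called for 0 of 41, against 0.0579% of all tested genes, with 4 higher and 5 lower in UMUC3 at an unadjusted p below 0.05. DESeq2 called 4 members for the difference, namely EIF4H, DCP2, LSM1 and LSM12, and limma voom called 0. The shares of all tested genes given beside these counts are those of edgeR. The shares that DESeq2 called over all genes are not given here, so its counts of members have no background beside them. The median log2 fold change of the members was 0.05 in T24 and -0.03 in UMUC3, beside 0 over all tested genes in each line. The median size of the log2 change, without its sign, was 0.32 in T24 and 0.26 in UMUC3, beside 0.39 and 0.45 over all tested genes.

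**Figure D1:**
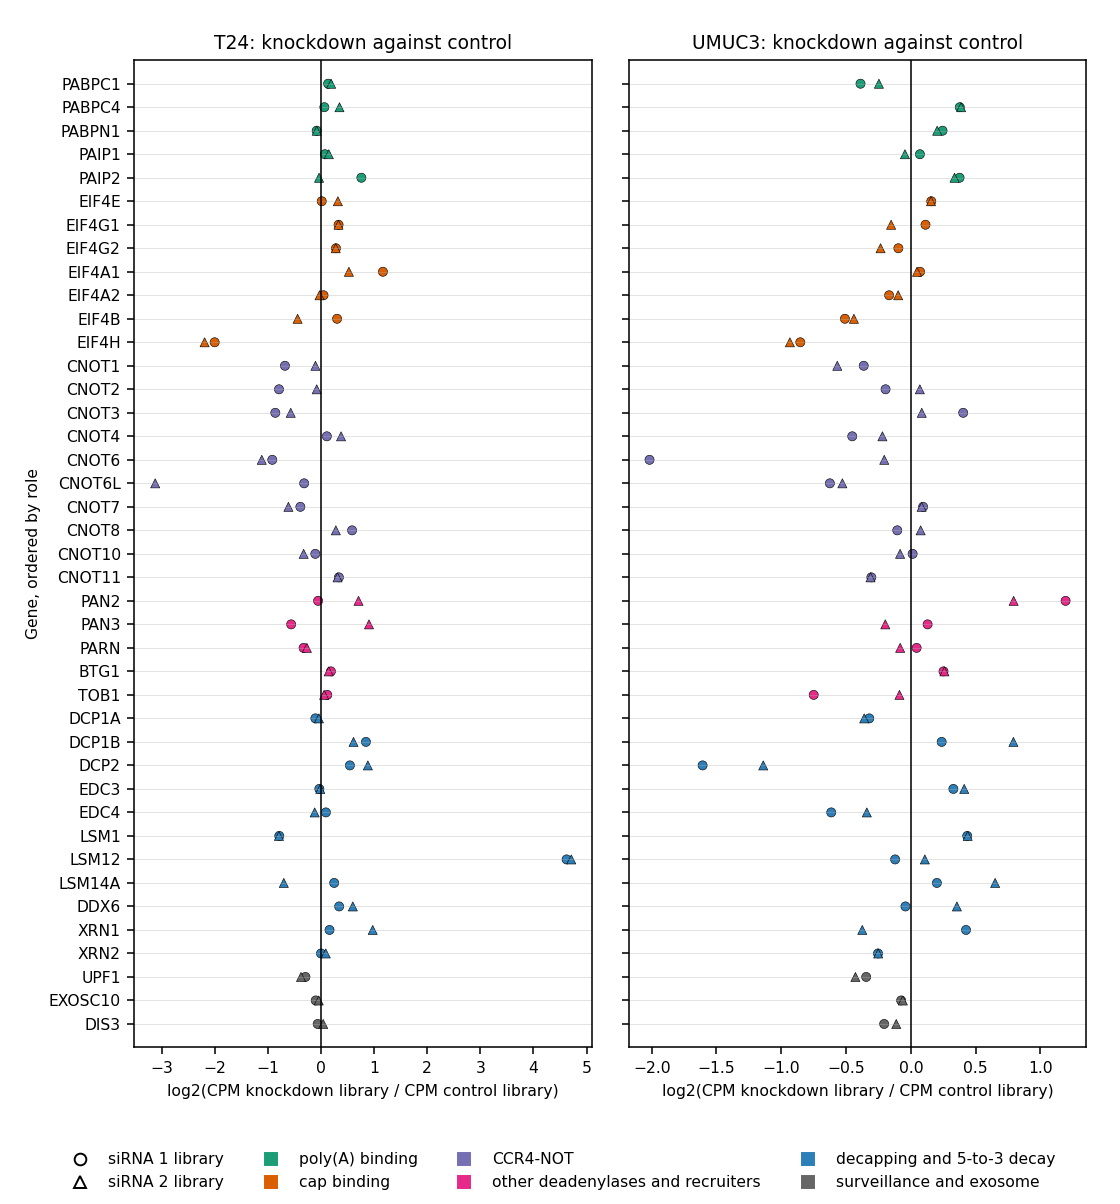
Each gene's log2 ratio of CPM in a knockdown library to CPM in the control library of its line (x axis, with a different range in each panel), for siRNA 1 (circles) and siRNA 2 (triangles), with genes on the y axis ordered and coloured by role. LSM12 and EIF4H lie far from 0 with both siRNAs in T24, CNOT6L is far from 0 with siRNA 2 alone, and in UMUC3 the lowest points are CNOT6 with siRNA 1 and DCP2 with both.

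Both knockdown libraries lay on 1 side of the control for 33 of 41 genes in T24 (18 above, 15 below), where 72.0% of all tested genes did so. In UMUC3 this held for 31 of 41 (13 above, 18 below), where 72.8% of all tested genes did so. All 4 knockdown libraries lay on the same side of their controls for 12 of 41 genes, beside 28.4% of all tested genes, so that the members' shares were near those of all genes. In CPM, the 5 genes above control in all 4 were PABPC4, EIF4E, EIF4A1, BTG1 and DCP1B. The 7 genes below control in all 4 in CPM were EIF4H, CNOT1, CNOT6, CNOT6L, DCP1A, UPF1 and EXOSC10. In opposite directions in CPM, 7 genes lay above control in T24 and below it in UMUC3 (PABPC1, EIF4G2, CNOT4, CNOT11, TOB1, DCP2 and XRN2). A further 5 lay below control in T24 and above it in UMUC3 (PABPN1, CNOT3, CNOT7, EDC3 and LSM1). These sides depend on whether levels are taken as sums of counts or per transcript length. In TPM, 30 of 41 genes kept their side in T24 and 33 in UMUC3. The opposite side was taken by PABPC1, EIF4E and DCP2 in T24 and by EIF4A1 and EIF4B in UMUC3, and the rest lay on both sides of control in 1 of the units. Above control in all 4 in both units were BTG1 and DCP1B, and below control in all 4 in both units were EIF4H, CNOT1, CNOT6, CNOT6L, DCP1A and UPF1.

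EIF4H, a partner of eIF4A that stimulates its helicase activity during scanning, fell in T24 and was lower in UMUC3. In T24 its level was 690 CPM in the control, 172 CPM with siRNA 1 and 151 CPM with siRNA 2. The UMUC3 levels were 522 CPM in the control, 289 CPM with siRNA 1 and 273 CPM with siRNA 2. The control was thus the highest library of each line, and the knockdown libraries of T24 lay below those of UMUC3. The log2 fold change was -2.09 ± 0.11 (SE; 2 knockdown libraries against 1 control) in T24 (edgeR adjusted p = 0.0316) and -0.89 ± 0.11 in UMUC3 (edgeR adjusted p = 0.0702). Over both lines it was -1.53 ± 0.27 (edgeR adjusted p = 0.171), and the effects of the lines differed by 1.20 ± 0.16 (edgeR adjusted p = 0.139). The call in T24 was lost when any 1 of the 4 knockdown libraries was left out, with a log2 fold change between -2.19 and -2.003. Leaving out a library, also one of UMUC3, takes residual degrees of freedom from the fit. Whether the loss is particular to EIF4H was not tested.

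EIF4H has 5 transcripts in the table, and EIF4H-201 and EIF4H-202 together held nearly all of its counts in every library. Exon 5 of the 7 exons of EIF4H-201 is skipped in EIF4H-202 with the reading frame kept. It is a coding exon of 60 bases at chr7:74190247-74190306 on the plus strand (GRCh38, GENCODE 29). These 2 transcripts, of 2679 and 2503 bases, also differ outside this exon. The sequence is shown because EIF4H-201 holds the exon and EIF4H-202 does not. The exon is in capitals, with 20 bases of each neighbouring exon in lower case.
EIF4H-201: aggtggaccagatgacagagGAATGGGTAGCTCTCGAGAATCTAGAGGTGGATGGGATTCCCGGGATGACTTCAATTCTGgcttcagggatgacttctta
EIF4H-202, which lacks the capitals, had 559 CPM in the T24 control, 120 CPM with siRNA 1 and 133 CPM with siRNA 2. EIF4H-201, which has them, had 156 CPM in the T24 control, 55.6 CPM with siRNA 1 and 21.0 CPM with siRNA 2. In T24 both transcripts were thus lower in both knockdown libraries. In UMUC3, EIF4H-201 stood at 244 CPM in the control and 62.3 and 49.8 CPM with siRNA 1 and siRNA 2, while EIF4H-202 stood at 246, 219 and 219 CPM. The share of EIF4H counts in EIF4H-201 was 49.65% in the UMUC3 control and 22.04% and 18.50% in its knockdown libraries. In T24 that share was 21.76% in the control, 31.42% with siRNA 1 and 13.51% with siRNA 2, and the knockdown libraries lay on both sides of the control. None of these transcript differences passed the test across 76126 transcripts (edgeR, adjusted p = 0.174 for EIF4H-202 in T24 and 0.567 for EIF4H-201 in UMUC3).

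LSM12, a protein with an LSM domain that is not part of the LSM1-7 ring, rose in T24. The T24 control had 2.44 CPM, siRNA 1 60.1 CPM and siRNA 2 63.9 CPM. The UMUC3 libraries stood at 55.4 CPM in the control, 50.9 CPM with siRNA 1 and 59.7 CPM with siRNA 2. The T24 control was therefore the 1 library that stood apart, and the other 5 libraries lay between 50.9 and 63.9 CPM. Its log2 fold change was 4.67 ± 0.23 (SE) in T24 (edgeR adjusted p = 0.0316) and 0.00 ± 0.17 in UMUC3, and the difference between the lines was -4.67 ± 0.27 (edgeR adjusted p = 0.0534). Leaving out any 1 of the 4 knockdown libraries ended the T24 call, with the log2 fold change between 4.62 and 4.71. As for EIF4H, such fits have fewer residual degrees of freedom, and whether the loss is particular to LSM12 was not tested.

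LSM12 has 3 transcripts in the table, and the difference lay in LSM12-201. LSM12-201 had 0 counts in the T24 control and 3433 and 3633 counts with siRNA 1 and siRNA 2. In UMUC3 it had 2773, 2765 and 3474 counts in the control, siRNA 1 and siRNA 2 libraries. By counting error alone a count of 0 allows up to 3 counts, but how reads were assigned to transcripts is not known here. In UMUC3, EIF4G1-219 also had 45642 counts with siRNA 1 and 0 with siRNA 2. Whether the 0 of LSM12-201 came from such assignment was not tested. LSM12-202 had 126 counts in the T24 control and 125 and 162 counts with siRNA 1 and siRNA 2. It thus differed little between the T24 libraries and held 86.9% of LSM12 counts in the control, where its remaining transcript had the other 19 counts. LSM12-201 joins its last 2 exons directly, whereas LSM12-202 has a further exon of 241 bases there (chr17:44036862-44037102, GRCh38). The join is shown because LSM12-201 holds it and LSM12-202 does not. The capitals mark the first 40 bases of the last exon (chr17:44036261-44036300, minus strand), all of them coding.
LSM12-201: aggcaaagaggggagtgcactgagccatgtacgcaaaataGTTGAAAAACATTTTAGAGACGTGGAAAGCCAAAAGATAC
The table also holds 15038 transcripts without a gene or position, which took 14.86% to 16.1% of each library's counts and were not used. In T24 the counts of EIF4H dropped by 30727 with siRNA 1 and dropped by 31996 with siRNA 2, and 3 of these unnamed transcripts gained at least 30727 counts in both. LSM12 gained 3432 and 3656 counts, and 97 unnamed transcripts lost at least 3432 in both. Since they have no position, whether any of them belongs to EIF4H or LSM12 was not tested.

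**Figure D2:**
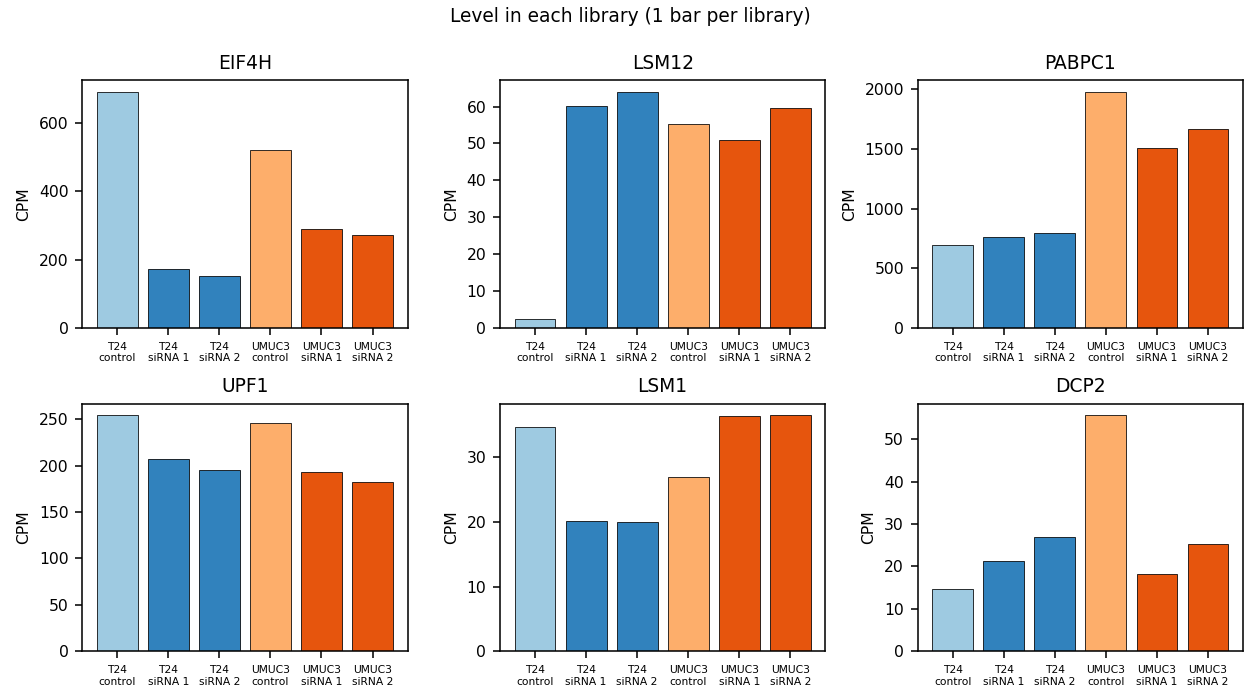
CPM (y axis, from 0, with its own range in each panel) of 6 genes in each of the 6 libraries (x axis, 1 bar per library, controls in light colours). EIF4H and UPF1 are highest in the control of each line, LSM12 is at 2.44 CPM in the T24 control alone, and LSM1 and DCP2 lie on opposite sides of control in the lines in CPM, which for DCP2 does not hold in TPM.

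Among the poly(A)-binding proteins and their regulators, 0 of 5 passed the test in either line or over both. In T24, PABPC1 had 695 CPM in the control, 763 CPM with siRNA 1 and 794 CPM with siRNA 2. The UMUC3 levels were 1978 CPM in the control, 1511 CPM with siRNA 1 and 1667.5 CPM with siRNA 2. In CPM it thus lay slightly above control in T24 and below control in UMUC3, with no overlap between the lines. Per transcript length it lay below control in all 4 knockdown libraries, with 633, 558 and 603 TPM (counts divided by transcript length and brought to the same total in each library) in T24 and 1590, 1471 and 1258 TPM in UMUC3. The T24 control held more of its PABPC1 counts on the shorter PABPC1-219 (2331 bases) than on PABPC1-201 (3485 bases). The log2 fold change was 0.16 ± 0.09 (SE) in T24 (edgeR adjusted p = 0.517) and -0.32 ± 0.08 in UMUC3 (edgeR adjusted p = 0.198), and the lines differed by -0.48 ± 0.12 (edgeR adjusted p = 0.26). Over both lines it was -0.08 ± 0.13 (edgeR adjusted p = 0.843). Without the UMUC3 control library that fit rests on T24 alone, with 0.16. PABPC4, a second cytoplasmic poly(A)-binding protein, stood at 124, 129 and 158 CPM in the T24 control, siRNA 1 and siRNA 2 libraries. In UMUC3 it stood at 166, 216 and 217 CPM. Its log2 fold change over both lines was 0.30 ± 0.13 (edgeR adjusted p = 0.454), and all 4 knockdown libraries were above control in CPM. PABPN1, which binds nuclear poly(A) tails, lay between 111 and 117 CPM in the T24 libraries and between 155 and 183 CPM in the UMUC3 ones. PAIP1, which promotes and PAIP2, which inhibits translation through PABPC1, ranged over the 6 libraries from 93.1 to 115 CPM and from 63.7 to 158 CPM. The library of PAIP2 that stood apart was T24 with siRNA 1, at 111 CPM against 65.3 and 63.7 CPM in the others of that line.

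Among the 7 cap-binding and eIF4F genes, EIF4H was the 1 gene that edgeR called in a knockdown comparison, in T24. EIF4G2, a homologue of eIF4G that does not bind eIF4E, stood at 1103, 1341 and 1337 CPM in the T24 control, siRNA 1 and siRNA 2 libraries. The UMUC3 levels were 1020, 954 and 867 CPM. The knockdown libraries were above control in T24 and below it in UMUC3, with a log2 fold change of 0.28 ± 0.08 in T24 (edgeR adjusted p = 0.318). EIF4G1, the main eIF4F scaffold, stood at 774, 974 and 973 CPM in T24 and at 1368, 1479 and 1231 CPM in UMUC3. EIF4A1, the eIF4F helicase, stood at 272, 609 and 391 CPM in T24, so that siRNA 1 and siRNA 2 differed more from each other than siRNA 2 did from control. In UMUC3 EIF4A1 lay between 269 and 282 CPM. EIF4B, the other stimulator of eIF4A, stood at 379, 467 and 279 CPM in T24, on both sides of control, and at 834, 586 and 615 CPM in UMUC3. EIF4E, the cap-binding subunit, lay between 48.5 and 66.3 CPM in all 6 libraries. Per transcript length EIF4E stood at 35.3, 19.7 and 17.0 TPM in the T24 control, siRNA 1 and siRNA 2 libraries. In UMUC3 it lay between 16.9 and 19.15 TPM. EIF4A2 lay between 29.7 and 31.3 CPM in T24 and between 59.3 and 66.6 CPM in UMUC3.

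Of the 10 CCR4-NOT subunits, 0 passed the test in either line or over both. Over both lines 9 of 10 had a negative log2 fold change, beside 10248 of all 20721 tested genes. Of these, CNOT11 (-0.004 ± 0.17) and CNOT4 (-0.05 ± 0.21) lay near 0. The median was -0.22, beside -0.06 over all 41 members and 0.01 over all tested genes. In T24 the median was -0.38 (7 of 10 negative, beside 9937 of 20721) and in UMUC3 -0.18 (8 of 10 negative, beside 9720). CNOT9, a subunit outside the 41 members, had 0.50 ± 0.18 in T24, -0.51 ± 0.18 in UMUC3 and -0.04 ± 0.26 over both. CNOT1, the scaffold, stood at 358, 224 and 333 CPM in the T24 control, siRNA 1 and siRNA 2 libraries. The UMUC3 libraries stood at 351, 273 and 237 CPM, and the log2 fold change of CNOT1 over both lines was -0.41 ± 0.18 (edgeR adjusted p = 0.451). The nuclease CNOT6 stood at 38.6, 20.4 and 17.8 CPM in T24 and at 39.5, 9.75 and 34.2 CPM in UMUC3, where siRNA 1 stood apart. Its paralogue CNOT6L stood at 42.0, 33.7 and 4.83 CPM in T24, where siRNA 2 stood apart, and between 2.995 and 4.62 CPM in UMUC3. CNOT7, the other kind of nuclease subunit, stood at 93.7, 71.6 and 61.2 CPM in T24 (log2 fold change -0.50 ± 0.14, edgeR adjusted p = 0.299). In UMUC3 CNOT7 stood at 122, 130 and 129 CPM. CNOT8, the paralogue of CNOT7, stood at 60.9, 91.3 and 73.9 CPM in T24 and at 104, 96.9 and 110 CPM in UMUC3, and was the subunit with a positive value over both lines.

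The CCR4-NOT subunits without nuclease activity differed in which way they lay. CNOT3, a regulatory subunit, stood at 54.3, 29.9 and 36.6 CPM in T24 and at 83.6, 111 and 88.6 CPM in UMUC3, a difference between the lines of 0.96 ± 0.31 (edgeR adjusted p = 0.325). CNOT11 showed the reverse, with 66.0, 83.3 and 81.9 CPM in T24 and 125, 101 and 101 CPM in UMUC3, a difference of -0.63 ± 0.15 (edgeR adjusted p = 0.248). In T24 alone its log2 fold change was 0.32 ± 0.11 (edgeR adjusted p = 0.369). CNOT2 ranged from 30.4 to 66.5 CPM over the 6 libraries, CNOT10 from 27.3 to 34.2 CPM and CNOT4, a ubiquitin ligase, from 20.2 to 33.4 CPM.

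Of the other deadenylases and the proteins that recruit deadenylases, 0 of 5 passed the knockdown tests. PAN2, the nuclease of the PAN2-PAN3 complex, stood at 13.9, 13.4 and 22.7 CPM in the T24 control, siRNA 1 and siRNA 2 libraries. In UMUC3 it stood at 13.1, 29.9 and 22.6 CPM. Both UMUC3 knockdown libraries and 1 of the T24 ones were above control, with a log2 fold change over both lines of 0.68 ± 0.31 (edgeR adjusted p = 0.473). PAN3, its partner, lay between 4.45 and 18.2 CPM, with T24 siRNA 2 the highest. PARN, a poly(A)-specific ribonuclease, stood at 65.3, 52.0 and 54.3 CPM in T24 and between 59.0 and 64.4 CPM in UMUC3. BTG1 and TOB1 belong to the antiproliferative BTG/TOB family, which binds CNOT7 and CNOT8. BTG1 stood at 74.9, 85.3 and 82.8 CPM in T24 and at 54.1, 64.4 and 64.7 CPM in UMUC3, above control in all 4 knockdown libraries. TOB1 lay between 52.3 and 56.7 CPM in T24 and stood at 28.7, 17.1 and 27.0 CPM in UMUC3.

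Among the 11 genes of decapping and 5'-to-3' decay, LSM12 was the 1 gene that edgeR called in a knockdown comparison, in T24. DESeq2 also called LSM1 in T24 and DCP2 in UMUC3, and both for the difference between the lines. DCP2, the decapping enzyme, stood at 14.7, 21.4 and 27.0 CPM in the T24 control, siRNA 1 and siRNA 2 libraries. The UMUC3 levels were 55.6, 18.2 and 25.2 CPM, so that in CPM the UMUC3 control was the highest of all 6 libraries and the other 5 lay between 14.7 and 27.0 CPM. Per length DCP2 lay below control in all 4 knockdown libraries, with 20.4, 16.0 and 14.9 TPM in T24 and 19.6, 11.3 and 15.7 TPM in UMUC3. Its log2 fold change was -1.35 ± 0.28 in UMUC3 (edgeR adjusted p = 0.136), and the lines differed by -2.08 ± 0.41 (edgeR adjusted p = 0.202). LSM1, of the ring that binds shortened tails, stood at 34.6, 20.1 and 19.998 CPM in T24 and at 26.9, 36.4 and 36.4 CPM in UMUC3. Knockdown libraries of each pair lay close together and on opposite sides of control in the lines. The log2 fold change of LSM1 was -0.79 ± 0.15 in T24 (edgeR adjusted p = 0.18) and 0.44 ± 0.16 in UMUC3 (edgeR adjusted p = 0.284). The difference between the lines was 1.23 ± 0.22 (edgeR adjusted p = 0.178).

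DCP1B, a cofactor of DCP2, stood at 6.04, 10.9 and 9.23 CPM in T24 and at 9.63, 11.4 and 16.7 CPM in UMUC3. All 4 knockdown libraries were above control, with a log2 fold change over both lines of 0.63 ± 0.25 (edgeR adjusted p = 0.418). Its paralogue DCP1A lay between 43.9 and 47.2 CPM in T24 and stood at 68.8, 55.1 and 53.6 CPM in UMUC3. EDC3, an enhancer of decapping, lay between 52.6 and 53.8 CPM in T24 and stood at 23.0, 28.9 and 30.6 CPM in UMUC3, where the log2 fold change was 0.37 ± 0.15 (edgeR adjusted p = 0.324). EDC4, the scaffold of the decapping complex, ranged from 109 to 168 CPM, with the UMUC3 control the highest. DDX6, the helicase that links CCR4-NOT to decapping, stood at 187, 237 and 284 CPM in T24 and at 119, 115 and 152 CPM in UMUC3. LSM14A, a P-body protein, lay between 5.31 and 13.1 CPM over the 6 libraries. XRN1, the cytoplasmic 5'-to-3' exonuclease, lay between 11.96 and 37.8 CPM, with T24 siRNA 2 the highest. The nuclear exonuclease XRN2 lay between 385 and 410 CPM in T24 and stood at 508, 426 and 427 CPM in UMUC3.

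UPF1 was lower in all 4 knockdown libraries by similar amounts, but passed the test in no edgeR comparison. It stood at 254, 207 and 196 CPM in the T24 control, siRNA 1 and siRNA 2 libraries. The UMUC3 libraries stood at 245, 193 and 182 CPM. The libraries of the lines overlapped, and within each line the control was the highest. The log2 fold change was -0.33 ± 0.10 in T24 (edgeR adjusted p = 0.314), -0.39 ± 0.10 in UMUC3 (edgeR adjusted p = 0.186) and -0.36 ± 0.10 over both (edgeR adjusted p = 0.291). The exosome nuclease EXOSC10 ranged from 133 to 148 CPM over the 6 libraries. DIS3, the other exosome nuclease, lay between 82.6 and 88.7 CPM in T24 and stood at 139, 121 and 129 CPM in UMUC3.

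More members were called between the lines than between knockdown and control, as held over all tested genes. A knockdown test within a line set 2 libraries against 1, so differences of the same size are less easily called there. The median size of the members' knockdown changes was 0.32 in T24 and 0.26 in UMUC3. Of 41 members, 16 passed the test of UMUC3 against T24 (3 libraries against 3, knockdown as a term), a share of 39.0% beside 40.2% of all tested genes. Of these, 10 were higher in UMUC3, where 18.9% of all tested genes were, and 6 were lower, where 21.3% were. The libraries of the lines did not overlap for 23 of 41 members (15 higher and 8 lower in UMUC3), beside 52.3% of all tested genes. The median log2 difference of the members was 0.34, beside -0.02 over all tested genes, and the median size without its sign was 0.50, beside 0.82.

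Of the 5 genes for poly(A)-binding proteins and their regulators, 4 were called higher in UMUC3, beside 18.9% of all tested genes. Among these, PABPC4 and PAIP2 were lost in some fits with 1 library left out, as given below. PABPC1 averaged 1719 ± 237.8 CPM (SD, n = 3) in UMUC3 and 751 ± 50.4 CPM (SD, n = 3) in T24, a log2 difference of 1.19 ± 0.12 (SE; edgeR adjusted p = 0.00114). PABPC4 was higher by 0.54 ± 0.12 (edgeR adjusted p = 0.0166), PABPN1 by 0.60 ± 0.11 (edgeR adjusted p = 0.00913) and PAIP2 by 0.86 ± 0.22 (edgeR adjusted p = 0.0253), each in 3 of 3 libraries. PAIP1 differed by -0.18 ± 0.11 and did not pass (edgeR adjusted p = 0.24). Among the cap-binding genes, EIF4G1 was higher in UMUC3 by 0.59 ± 0.11 (edgeR adjusted p = 0.0102), EIF4A2, the second eIF4A helicase, by 1.04 ± 0.13 (0.00209) and EIF4B by 0.84 ± 0.22 (0.0281). EIF4G2 was lower in UMUC3 (-0.41 ± 0.11, edgeR adjusted p = 0.0346).

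In the decay machinery the calls went both ways. CNOT3 (1.26 ± 0.25, edgeR adjusted p = 0.0109), CNOT7 (0.77 ± 0.16, 0.0144) and DIS3 (0.59 ± 0.11, 0.00906) were higher in UMUC3. TOB1 (-1.18 ± 0.22, edgeR adjusted p = 0.0098) and BTG1 (-0.41 ± 0.11, 0.0321), which recruit deadenylases, were lower in UMUC3. So were EDC3 (-0.96 ± 0.15, edgeR adjusted p = 0.00481) and DDX6 (-0.86 ± 0.16, 0.00854), which act at decapping. CNOT6L had the largest size among the members called, -2.83 ± 0.74 (edgeR adjusted p = 0.0318), and rested on 2 T24 libraries, since T24 with siRNA 2 stood at 4.83 CPM, close to UMUC3. Without T24 siRNA 1 its log2 difference was -1.86.

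Of the 16 genes called between lines, 9 passed in all 6 fits with 1 library left out, namely PABPC1, PABPN1, EIF4G1, EIF4A2, CNOT3, TOB1, EDC3, DDX6 and DIS3. The other 7, which were PABPC4, PAIP2, EIF4G2, EIF4B, CNOT6L, CNOT7 and BTG1, were lost in at least 1 such fit, with adjusted p of up to 0.14. EIF4B and CNOT6L were each kept in 1 of the 6 fits, without T24 siRNA 1 for EIF4B and without T24 siRNA 2 for CNOT6L. The number called fell to 9 without either UMUC3 knockdown library.

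**Figure D3:**
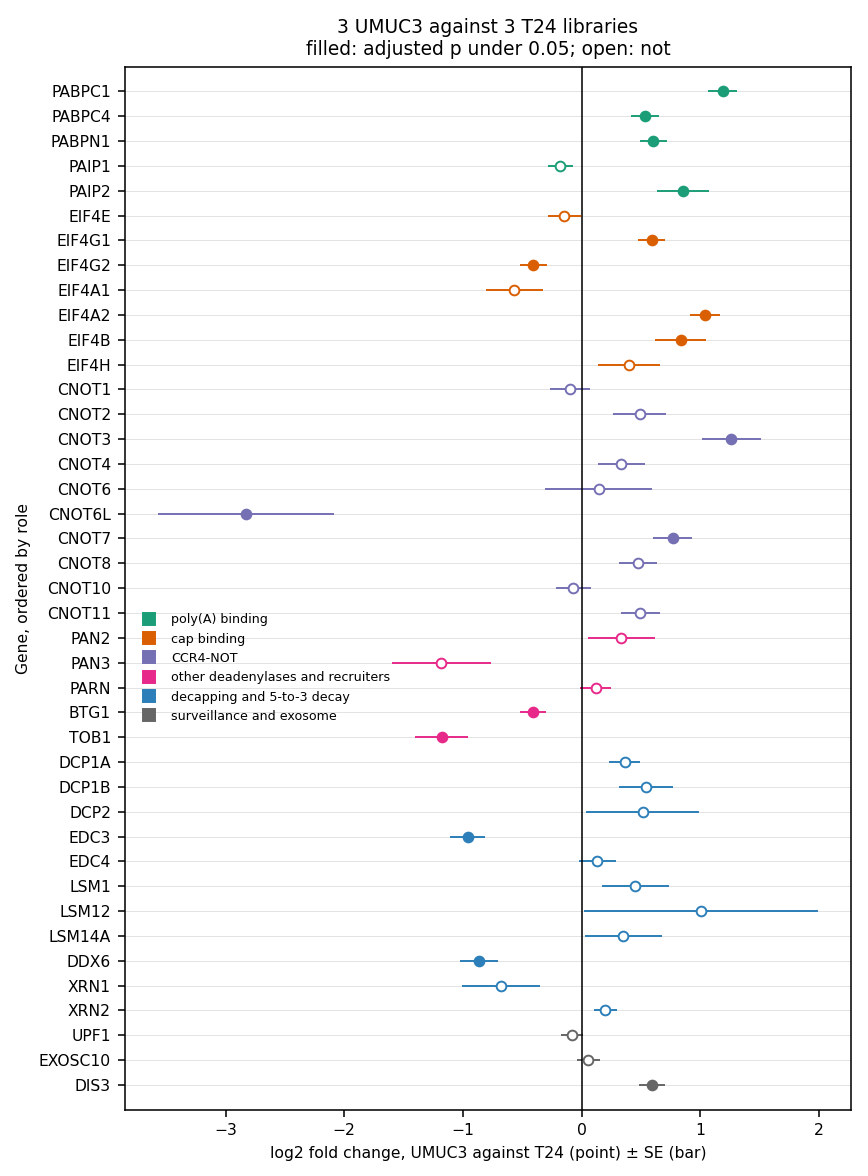
The log2 fold change of UMUC3 against T24 (x axis; points with bars of 1 SE) for the 41 genes (y axis, ordered and coloured by role), with filled points for an edgeR adjusted p under 0.05. The 4 filled points among the poly(A)-binding proteins and their regulators all lie to the right of 0, and CNOT6L and LSM12 have the widest bars.

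Levels of different genes can be compared only per length, here in TPM over GENCODE 29 transcript lengths. By median over the 6 libraries the highest were PABPC1 at 945 TPM (558 to 1590), EIF4G2 at 706 TPM (594 to 891), EIF4G1 at 525 TPM (366 to 665) and EIF4A1 at 380.5 TPM (362.5 to 1135). The ranges of neighbours in this order overlap, and the order differs between the lines. In T24, EIF4G2 (766, 891 and 877 TPM) exceeded PABPC1 (633, 558 and 603 TPM) in all 3 libraries, and EIF4A1 exceeded it with siRNA 1. At the low end lay PAN3 at 3.98 TPM (2.39 to 13.5), CNOT6L at 5.46 TPM (2.71 to 15.1) and LSM14A at 7.91 TPM (5.40 to 10.4). The TPM of PABPC1 was 4.57 to 5.72 times that of PABPC4 in T24 and 6.81 to 11.3 times in UMUC3. EIF4G1 stood at 0.478 to 0.523 times EIF4G2 in T24 and at 0.972 to 1.12 times in UMUC3, again with no overlap. EIF4A1 stood at 8.14, 26.1 and 13.5 times EIF4A2 in the T24 control, siRNA 1 and siRNA 2 libraries and at 4.29 to 4.97 times in UMUC3. These TPM ratios are descriptions without a test.

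How the counts of a gene were split over its transcripts often changed from library to library, also between libraries of the same group. The composition shift of a gene measures this, as the largest part of its counts that lay on other transcripts when any 2 libraries of a line were compared. It reached 0.5 in at least 1 line for 12 of the 40 members with 2 or more transcripts, beside 38.4% of all such genes. These were PABPC1, PAIP1, EIF4G1, EIF4A1, CNOT1, CNOT6L, CNOT8, CNOT10, EDC4, LSM12, LSM14A and XRN1. It stayed under 0.2 in both lines for 13 members, UPF1, PABPC4, PABPN1, EIF4A2, DDX6 and EDC3 among them. XRN2 has a single transcript. For EIF4H the shift was 0.181 in T24 and 0.312 in UMUC3, and for LSM12 it was 0.96 in T24 and 0.072 in UMUC3.

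In PABPC1 the transcript PABPC1-201 held 37.6% of the counts in the T24 control, 90.8% with siRNA 1 and 81.0% with siRNA 2. PABPC1-219 held 54.9%, 1.93% and 10.9% in the same order. In UMUC3 the shares were 69.3% to 80.8% and 10.6% to 11.2%, so that the T24 control stood apart from the other 5 libraries, while its PABPC1 sum of 695 CPM lay near the 763 and 794 CPM of the knockdown libraries. CNOT6L-201 held 86.7% and 97.6% of CNOT6L counts in the T24 control and siRNA 1 libraries, and 2.44% with siRNA 2, the library in which the sum of the gene was low. CNOT6L-206 held 93.0% in that library and 0.16% and 1.65% in the other T24 libraries. PAIP1-202 was at 0 in the UMUC3 control and held 37.2% to 66.3% of PAIP1 counts elsewhere. EIF4G1-219 was at 0 with siRNA 2 in UMUC3 and held 51.6% to 57.9% in the other 5 libraries. Among the retained-intron transcripts, EDC4-207 held 67.9% of EDC4 counts with siRNA 1 in UMUC3, 1.71% with siRNA 2 and 2.34% in the control.

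EIF4A1 was split over 5 transcripts that each held at least 20% in some library. EIF4A1-209 held 60.7% of the counts with siRNA 1 in T24, where the sum of the gene was highest, and 6.84% or less in the other 5 libraries. EIF4A1-201 held 48.2% in the T24 control, 24.3% with siRNA 1 and 17.0% with siRNA 2, and 5.04% to 7.15% in UMUC3. EIF4A1-225 held 12.3%, 4.34% and 54.2% in T24 and 43.3% to 65.3% in UMUC3. Exon 10 of the 11 exons of EIF4A1-201 is skipped in EIF4A1-225 with a change of reading frame. It has 80 bases at chr17:7578165-7578244 on the plus strand (GRCh38). These 2 transcripts, of 1756 and 1645 bases, also differ outside this exon. The exon is shown in capitals, with 20 bases of each neighbour in lower case, because EIF4A1-201 is 1 of the transcripts that passed a test.
EIF4A1-201: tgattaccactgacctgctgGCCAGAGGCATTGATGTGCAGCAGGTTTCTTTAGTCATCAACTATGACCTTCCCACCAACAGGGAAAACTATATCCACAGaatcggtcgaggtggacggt
Of the 490 transcripts of the members, 367 passed the filter. In the knockdown comparisons 0 of 367 were called in T24, beside 0.00% of all tested transcripts (27 at an unadjusted p below 0.05, edgeR). In UMUC3 0 were called beside 0.00394% (22 unadjusted), over both lines 0 beside 0.0118% (13 unadjusted), and for the difference 0 beside 0.00% (26 unadjusted). No other tool was run on transcripts. Between the lines 4 transcripts of 3 genes were called, beside 2.92% of all tested transcripts. EIF4A1-201 (-2.88 ± 0.39, edgeR adjusted p = 0.0412) and DDX6-206 (-1.25, 0.0498) were lower in UMUC3, and EIF4A2-219 (1.76, 0.0459) and EIF4A1-234 (2.50, 0.0492), which held at most 6.61% of EIF4A1 counts, were higher. EIF4A1-201 stood at 136, 152 and 68.4 CPM in the T24 control, siRNA 1 and siRNA 2 libraries and at 13.9 to 19.6 CPM in UMUC3. None of these 4 was called in a fit with 1 library left out.

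**Figure D4:**
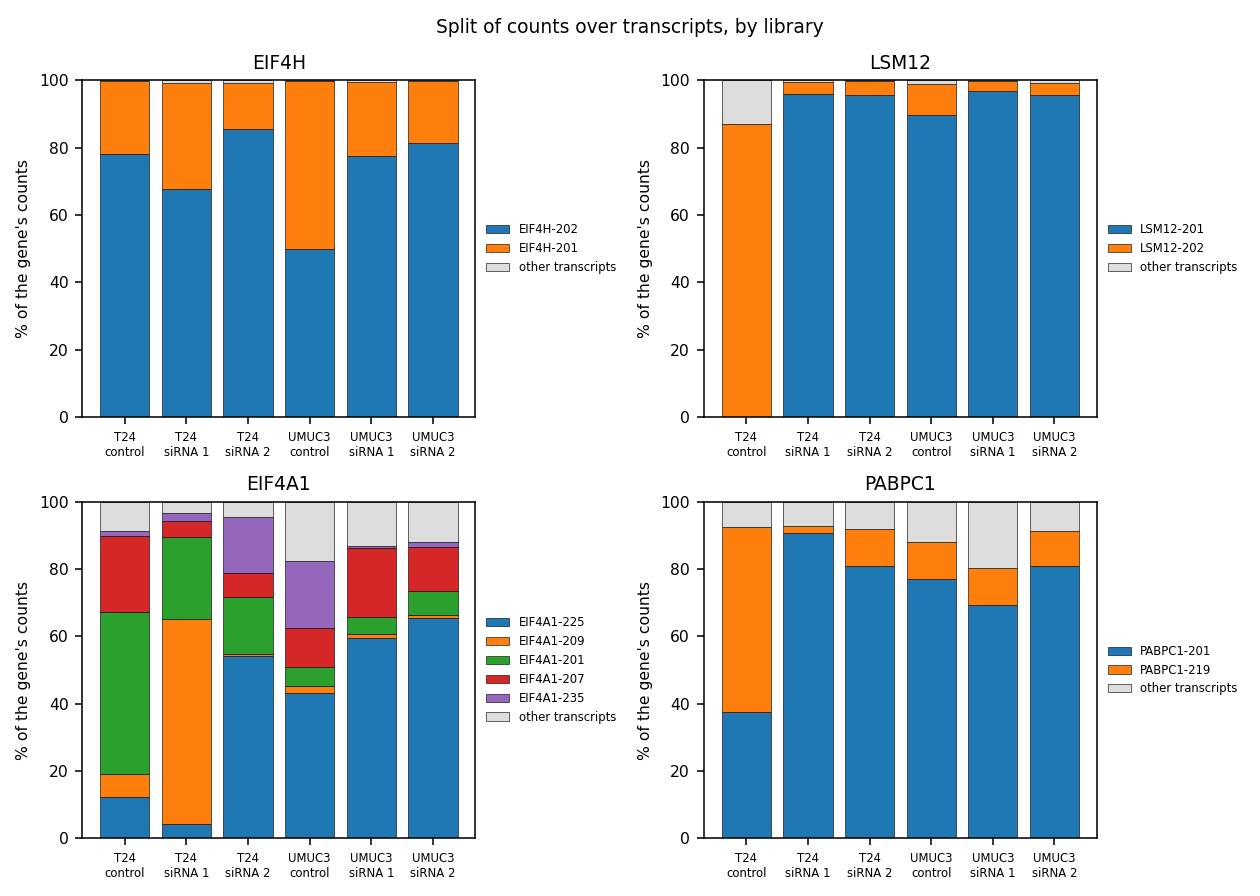
Share of a gene's counts (y axis, 0 to 100%) in each transcript that held at least 20% in any library, for EIF4H, LSM12, EIF4A1 and PABPC1, with 1 stacked bar per library (x axis) and the remaining transcripts in grey. The T24 control stands apart for LSM12 and PABPC1, and T24 with siRNA 1 for EIF4A1.

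**Figure D5:**
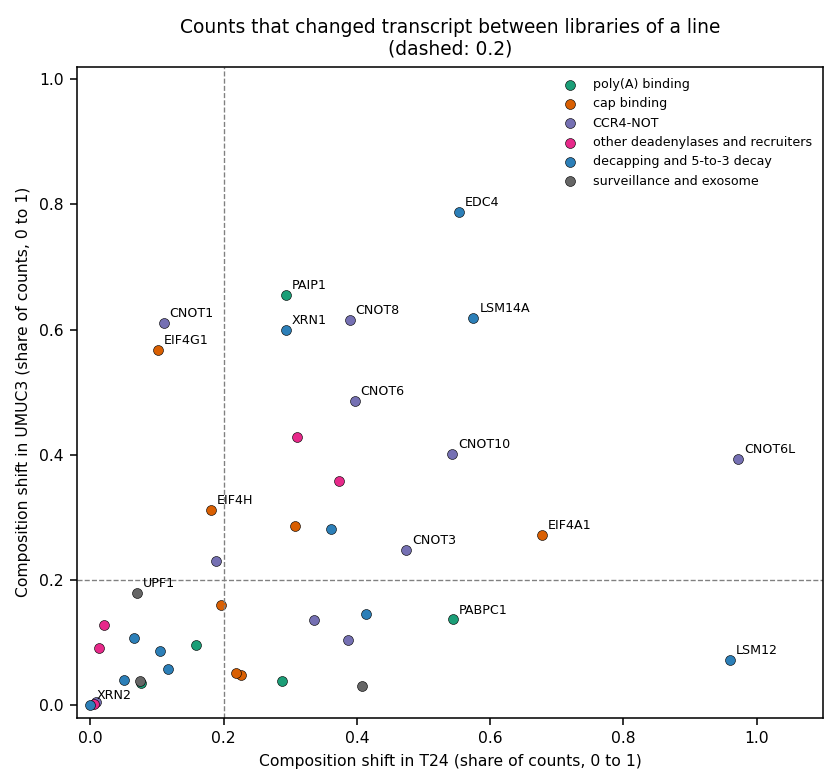
Composition shift of each gene in T24 (x axis) and UMUC3 (y axis), from 0 (same split in all libraries of the line) to 1, coloured by role, with dashed lines at 0.2 and names beside genes far from 0. LSM12 lies at 0.96 in T24 and 0.072 in UMUC3, while UPF1 and XRN2 lie under 0.2 in both.

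Some counts could have been shared with near-identical or overlapping genes, so levels of these members are uncertain. PABPC1 and EIF4A1 each have 13 annotated pseudogenes named after them, EIF4B has 9, EIF4E and EIF4A2 5 each, EIF4H 2 and LSM12 1. EIF4A1 also overlaps the readthrough gene SENP3-EIF4A1 on its strand, and PABPN1 overlaps BCL2L2-PABPN1.

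The other genes of the same pathways gave few knockdown calls as well. Of 75 such genes, all tested, 0 were called in T24 (7 higher and 8 lower at an unadjusted p below 0.05, edgeR) and 0 over both lines (3 higher and 8 lower unadjusted). In UMUC3, 1 rose and 1 fell, beside 0.647% of all tested genes called, and 0 were called for the difference between the lines (5 higher and 7 lower unadjusted). EXOSC9, a subunit of the exosome ring, rose in UMUC3 from 18.1 CPM in the control to 61.3 and 65.2 CPM (log2 fold change 1.81 ± 0.16, edgeR adjusted p = 0.047). EIF4EBP2, which sequesters eIF4E, fell in UMUC3 from 219 CPM to 80.8 and 86.8 CPM (-1.39 ± 0.11, edgeR adjusted p = 0.0446). In T24 EXOSC9 stood at 25.2, 45.1 and 41.9 CPM and EIF4EBP2 at 110, 59.6 and 57.5 CPM, and neither passed there (edgeR adjusted p = 0.187 and 0.108). Between the lines 26 of 75 were called, 20 higher and 6 lower in UMUC3, beside 18.9% of all tested genes higher and 21.3% lower. Higher ones included the initiation factor subunit EIF3E (1.26, edgeR adjusted p = 0.000256) and BTG3 (2.09, 0.000192). Lower ones included PAIP2B, the paralogue of PAIP2 (-3.79, edgeR adjusted p = 0.000857), and the ribosome rescue factor PELO (-1.33, 0.00154).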

How the data were processed

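RNA-seq was deposited for 6 libraries, as 1 table of whole-number counts per transcript that the authors made, which are raw counts and not normalized. The build was hg38, and the tools listed are HISAT2 2.1.0, StringTie 1.3.3b and FastQC 0.11.5, without their roles, per the submitters' processing notes. Strandedness, RNA selection and the counting rule are not given in the sources used here. Total RNA was extracted, per the labels' protocols. Of 136953 transcripts, 15038 without a gene were left out. The others were summed per gene. Of the members' 490 transcripts, 488 have the coordinates of GENCODE 29.

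Tests covered genes that reached 10 counts in 2 or more libraries and 30 in all (20721 genes, likewise 76126 transcripts) with TMM scaling and edgeR 4.0.16 (robust quasi-likelihood test, R 4.3.3), with Benjamini-Hochberg adjustment over all of them and a threshold of 0.05. Knockdown was tested over both lines with the line as a term (3 residual degrees of freedom). It was tested within a line, and as the difference between lines, in a fit of 4 groups (2 residual degrees of freedom), in which each lone control was assumed to vary like the knockdown pairs. Fits were tested on simulated data. DESeq2 1.42.0, limma 3.58.1 (voom), other size factors, no filter, a replicate block and leaving out each library were alternatives.

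Knockdown libraries carry the siRNA numbers of their titles. In T24 the column names carry the opposite numbers. The correlation over genes of the siRNA 1 minus siRNA 2 difference between the lines was 0.011 by titles. By columns it is the same value with its sign reversed by construction (-0.011). The numbers were therefore not treated as pairing samples. The libraries of a knockdown pair differed by more than sampling noise (chi-square per degree of freedom 115.9 in T24 and 112.4 in UMUC3).

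Fold changes with tests are printed for PABPC1, for every member called, and for up to 3 members with the smallest p per comparison and direction. Transcripts are named for members that were called or had a composition shift of at least 0.5, where they held at least 20% of the gene's counts in a library, and every transcript that was called (EIF4A1-234 among them) is named besides. The values of PAIP1 between lines, LSM12 in UMUC3 and UPF1 in T24 fall outside this rule and were chosen after they were seen. So were those of CNOT4 and CNOT11 over both lines and of CNOT9. The members, the lists and the composition shift were chosen with earlier results of these data known.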

Additional observations from a re-analysis of the deposited data

How the results depend on the processing

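The numbers of members called depended on the test more than on the scaling. DESeq2 called 2 members over both lines, 2 in UMUC3 and 4 for the difference between lines, where edgeR called 0 in each, and 3 in T24, where edgeR called 2. How many of all genes DESeq2 called is not given here. In T24, 0 members were called by limma voom, 0 by the older quasi-likelihood form (chosen after seeing the data) and 0 among composition-stable genes alone, which hold neither EIF4H nor LSM12. That set gave 9 calls between lines among 13 members. The share of all composition-stable genes called in that fit is not given here, so these 9 have no background beside them. With no filter on low counts, 1 member (LSM12) was called for the difference and 0 member transcripts between lines. With the replicate block, by the titles' or the columns' numbers, 0 members were called in T24 in place of 2, and 0 member transcripts between lines with the titles' numbers, while 14 members were called between lines. The scaling alternatives (DESeq2 size factors in edgeR, library size from all transcripts) and the fit without robust estimation kept 2 calls in T24 and 16 between lines. Leaving out 1 library gave 0 to 2 calls in T24 (0 whichever of the 4 knockdown libraries was left out), 0 to 2 over both lines (2 without the UMUC3 control, where that fit rests on T24 alone), 9 to 15 between lines (9 without either UMUC3 knockdown library) and 0 to 0 member transcripts between lines. The fold change of PABPC1 over both lines ranged from -0.31 to 0.16. Both ends follow from the construction, since without the control of 1 line the fit rests on the other line, and the reversal to 0.16 without the UMUC3 control is the T24 value. The T24 and difference comparisons could not be fitted without the T24 control, nor the UMUC3 and difference comparisons without the UMUC3 control. Of the values of single members, 584 kept their direction and side of the threshold, 51 lost the call, 11 gained one and 1 reversed. The causes of these changes were not tested.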
